A study of Homo sapiens with 10 samples.

Results

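Broad m6A peaks, 500 nt or more from start to end, were examined in the peak lists of 5 human colon cancer cell lines. They were chosen by their width as listed on chromosomes 1 to 22, and 861 of the 35860 peaks there met the rule, which is 2.40%. The remaining peaks, all under 500 nt, are called narrower peaks here. Each line was represented by 1 m6A immunoprecipitation (IP) library, in which an antibody to N6-methyladenosine pulled methylated fragments out of total RNA, and by 1 input library of the unenriched fragments. HCT116, HT29 and HCT15 carry the tissue label colorectum, and COLO320DM and COLO205 the label colon. All 5 are established tumour lines, and the labels give a culture medium and no treatment. With 1 library per line there was no replicate spread within a line, so a difference between lists compares these libraries and was given no test.

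m6A is a methyl mark on adenosines inside messenger and long non-coding RNAs. It is written by the METTL3 and METTL14 methyltransferase complex, can be removed by the demethylases FTO and ALKBH5, and is bound by YTH-domain proteins that act on RNA decay, splicing and translation. The mark is known to collect in long internal exons and around stop codons, and in colon cancer its writers and readers have been studied for their part in tumour growth. In MeRIP-seq, RNA is broken into short pieces before the IP, so a peak is a stretch of genome over which pulled-down pieces pile up above the local background, and its start and end are set by the peak caller. No gene annotation or sequence of the hg19 build was used here, so loci are named by their hg19 positions, counted from 1.

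Depth was estimated from the lists themselves, as the reads that the peak call used. By this estimate the IP libraries of the 4 lines other than HCT15 came to 1.38 M to 2.99 M reads (M for mega), and their inputs to 2.24 M to 5.41 M. HCT15 stood apart, with 5.02 M IP reads over 1.61 M input reads. The caller counted each of its IP reads as 0.32, and the HCT15 list held only 852 peaks on these chromosomes against 8304 to 9284 in the others. Whether the HCT15 libraries carry the right labels was not checked. Mean differences in location and overlap, shared loci and edge positions are given with and without HCT15. Stricter measures of sharing are given only with HCT15.

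Broad peaks made up a small part of every list and a larger part of its length. There were 349 in HT29, 209 in COLO205, 164 in HCT116, 117 in COLO320DM and 22 in HCT15. As a share of the peaks this was 4.09% in HT29 (exact Clopper-Pearson 95% interval 3.68 to 4.53%), 2.58% in HCT15 (1.63 to 3.88%) and 2.25% in COLO205 (1.96 to 2.57%). It was 1.85% in HCT116 (1.58 to 2.15%) and 1.41% in COLO320DM (1.17 to 1.69%). All intervals given here cover counting error only. HT29 was thus the list richest in broad peaks and COLO320DM the poorest. Of the genome length inside peaks, broad peaks held 16.7% in HT29, 10.1% in HCT15, 9.60% in COLO205, 8.50% in HCT116 and 6.60% in COLO320DM.

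Most broad peaks lay not far above the threshold. The widths had a median of 637 nt in HT29, 610 nt in HCT116, 609 nt in COLO205, 603.5 nt in HCT15 and 593 nt in COLO320DM, against medians of 113 to 126 nt for the narrower peaks. Of the 861, 655 were under 750 nt, 76 reached 1000 nt and 5 reached 2000 nt. The widest of each long list were the 4 calls at 1 place, chr15:65243376-65247417, at 3958 to 4027 nt, and the widest HCT15 peak had 981 nt. The summit, the point of highest enrichment, was spread along the broad peaks. Its median place was 0.428 to 0.559 of the way from start to end over the 5 lists, with quartiles of 0.282 and 0.704 in HT29, 0.262 and 0.653 in COLO205, and 0.334 and 0.860 in HCT15. The 5 members just inside the threshold, at 500 to 502 nt, had folds of 4.37 to 11.7 and 5 to 26 IP reads at the summit. The 5 peaks just outside, all at 499 nt, had folds of 3.63 to 12.7 and 7 to 40 reads, so the ranges on the 2 sides of the threshold overlapped.

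**Figure D1:**
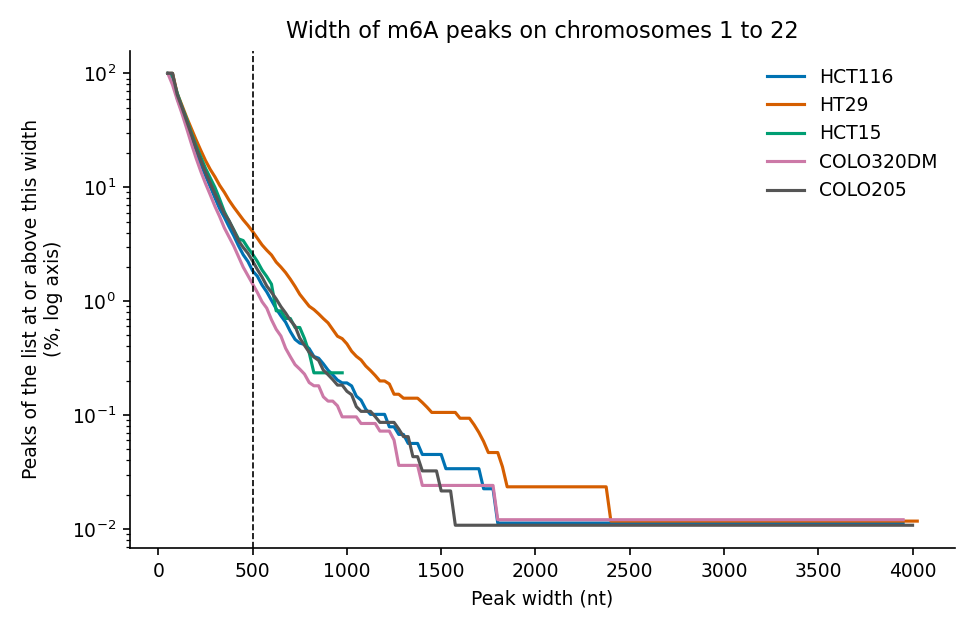
Share of the peaks of each list (vertical axis, %, log axis) that are at or above a given width (horizontal axis, nt), on chromosomes 1 to 22, 1 curve per line; the dashed line is 500 nt. The HT29 curve crosses it at 4.09% and the COLO320DM curve at 1.41%, and 4 of the curves end at the single peak of 3958 to 4027 nt.

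Broad peaks were more strongly enriched than the narrower peaks of the same list, in every list. This is a description with no test, since fold, p-value and width come from the same peak call. The deposited fold, which sets the signal at the summit against the background around it, had a median of 6.72 in broad and 5.06 in narrower peaks of HCT116, 9.11 and 5.67 in HT29, and 8.72 and 5.63 in HCT15. It was 7.13 in broad and 5.23 in narrower peaks of COLO320DM, and 8.74 and 5.70 in COLO205. The deposited −log10 p had medians of 14.0 to 20.4 in broad peaks, against 8.87 to 9.93 in narrower peaks.

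The reads under that signal differed between the lists. Read counts of peaks given here are those over the summit, not of all reads in the peak. The number of IP reads over the summit was recovered from fold and −log10 p. Its median was 36 in broad and 11 in narrower peaks of HCT116, and 35 and 12 in COLO320DM. It was 17 in broad and 8 in narrower peaks of COLO205, 11 and 7 in HT29, and 28.5 and 18 in HCT15, where reads are counted before scaling. Broad peaks of HCT116 and COLO320DM therefore had about 3 times the summit reads of their narrower peaks, and those of HT29 little more than theirs. The summit had fewer than 10 reads in 37.0% of the broad and 61.0% of the narrower peaks of HT29. In COLO205 this held for 24.4% of the broad and 56.4% of the narrower peaks. In HCT116 this held for 3.66% of broad and 44.8% of narrower peaks, in COLO320DM for 0.855% and 39.8%, and in HCT15 for no peak.

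The local background separated the lists in the same way. Input-covered peaks are those whose background came to 1 input fragment or more; all others are called input-poor. Of the broad peaks, 93.9% were input-covered in HCT116 (95% interval 89.1 to 97.0%) and 96.6% in COLO320DM (91.5 to 99.1%), against 57.9% and 62.1% of their narrower peaks. In HT29 the order turned round, with 29.8% of broad peaks (25 to 34.9%) against 38.4% of narrower peaks (37.4 to 39.5%). COLO205 lay between, at 59.3% of broad and 49.4% of narrower peaks, and in HCT15 3 of 22 broad peaks, 13.6%, and 18.6% of narrower peaks were input-covered. The median background was 6.0 input fragments under broad and 1.05 under narrower peaks of HCT116, and 6.0 and 1.46 in COLO320DM. In HT29 it was 0.180 under broad and 0.232 under narrower peaks. The broad class therefore held mostly peaks on RNA that was well covered by the input in HCT116 and COLO320DM, and mostly peaks with hardly any input in HT29 and HCT15. The HT29 input had an estimated 3.10 M reads, the COLO320DM input 2.28 M and the HCT116 input 2.24 M. The part of input depth in these shares was not tested.

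Within classes of similar reads, which class of input held more broad peaks changed with the class. Among HT29 peaks of 10 to 19 reads, 116 of 593 input-poor peaks were broad, 19.6% (16.4 to 23.0%), against 34 of 1454 input-covered peaks, 2.34% (1.62 to 3.25%). COLO205 peaks of 10 to 19 reads were broad in 7.02% of the input-poor and 1.17% of the input-covered cases. In HCT116 these shares were 1.41% and 0.566%, and in COLO320DM 1.02% and 0.420%, each with overlapping intervals. HT29 peaks of 20 to 39 reads were broad in 16 of 48 input-poor cases, 33.3%, and in 3.22% of the input-covered ones. Under 10 reads, which holds 129 of the HT29 broad peaks, the shares were 2.43% of the input-poor and 3.30% of the input-covered HT29 peaks, with overlapping intervals. At 40 reads or more 0 of 3 input-poor HT29 peaks were broad, and in HCT116 at 20 to 39 reads 0 of 23 input-poor against 4.02% of input-covered peaks. The higher share of input-poor peaks was thus clear of the intervals at 10 to 39 reads in HT29 and at 10 to 19 reads in COLO205. Among input-covered peaks of the 4 lists other than HCT15, the broad share was highest at 40 reads or more. It was 15.7% in HCT116, 10.4% in COLO320DM, 7.32% in HT29 and 6.85% in COLO205. At 10 to 19 reads, input-covered peaks were broad in 0.420 to 2.34% of cases in these 4 lists. HT29 had its 2.34% there and 3.30% under 10 reads. HCT15 went the other way on few broad peaks, with 2 of 47 input-covered peaks broad at 20 to 39 reads and 1 of 110 at 40 or more.

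Broad peaks lay near chromosome ends more often than narrower peaks in all 5 lists. The zone within 5 Mb of an end, with each chromosome taken to reach from base 1 to its last listed peak, covers 7.65% of the autosomal spans. It held 37.8% of the broad peaks of HCT116 (30.4 to 45.7%) against 21.7% of the narrower peaks, and 46.4% (41.1 to 51.8%) against 25.9% in HT29. In HCT15 it held 68.2% of broad peaks (45.1 to 86.1%) against 38.8% of narrower peaks, in COLO320DM 27.4% (19.5 to 36.4%) against 15.7%, and in COLO205 38.3% (31.7 to 45.2%) against 23.3%. The mean difference was 18.5 percentage points, and broad peaks were higher in 5 of 5 lists. An exact sign-flip permutation test over the lists gave a two-sided p = 0.063, the smallest that 5 lists allow, and 0.0833 after Benjamini-Hochberg adjustment over 4 tests. Without HCT15 the mean difference was 15.8 points, higher in the 4 remaining lists.

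The excess near the ends was present within both input classes. Input-covered peaks lay in the zone in 35.7% of broad and 20.9% of narrower cases in HCT116, 41.3% and 17.0% in HT29, 27.4% and 17.7% in COLO320DM, and 32.3% and 19% in COLO205. Input-poor peaks did so in 48.6% of broad and 31.6% of narrower cases in HT29, and in 47.1% and 27.4% in COLO205. Of the few input-poor broad peaks elsewhere, 7 of 10 in HCT116, 1 of 4 in COLO320DM and 13 of 19 in HCT15 lay in the zone, against 22.8%, 12.5% and 43.5% of the input-poor narrower peaks of these lists. In HCT15 2 of 3 input-covered broad peaks did, against 18.2% of the narrower ones. In the last 1 Mb, 1.53% of the spans, the broad peaks again had the larger share in each list, 10.0 to 22.7% against 5.08 to 10.5% of narrower peaks.

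**Figure D2:**
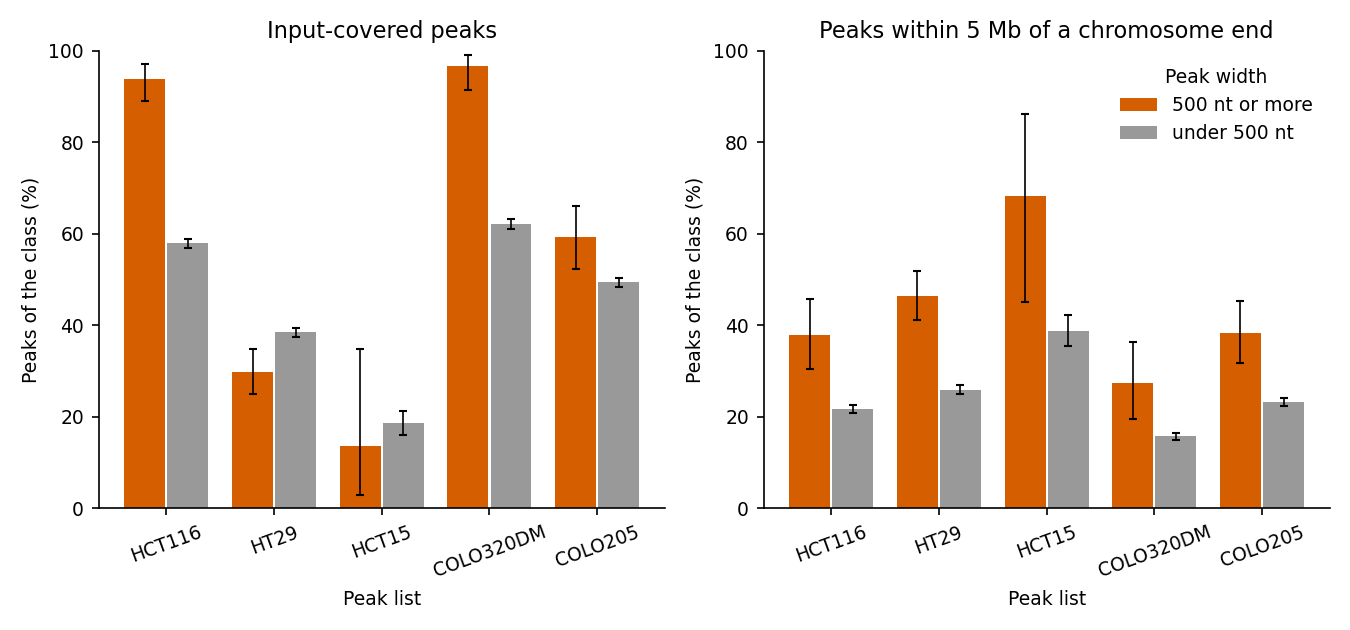
Share of broad (500 nt or more, left bar of each pair) and narrower peaks (right bar) that were input-covered (left panel, %) and that lay within 5 Mb of a chromosome end (right panel, %), per list. Bars are shares, and error bars are exact 95% intervals for counting error; broad peaks were higher at the ends in all 5 lists, while the input-covered share was 93.9% in HCT116 and 29.8% in HT29.

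Individual stretches collected several broad peaks. The 1 Mb window chr16:89000001-90000000 held 7 of the HCT116 and 3 of the COLO320DM broad peaks, the most of any fixed 1 Mb window in HCT116. HT29 had 7 in each of chr7:1-1000000 and chr7:157000001-158000000, at the opposite ends of chromosome 7. The window chr12:132000001-133000000 held 6 from HT29 and 5 from COLO205. In COLO205 chr1:142000001-143000000, which is not near a chromosome end, also held 5. In HCT116 chr14:105000001-106000000 and chr8:144000001-145000000 held 5 each. Chromosome 7 carried 12.0% of the HT29 broad peaks (8.81 to 15.9%) against 7.22% of its narrower peaks, and 0 to 7.32% of the broad peaks of the other lists. Chromosome 19, the most gene-dense human chromosome, carried 16.5% of the HCT116 broad peaks (11.1 to 23.0%) against 7.95% of its narrower peaks, and 3.83 to 6.84% of the broad peaks elsewhere. In COLO205 chromosome 13 carried 7.66% (4.44 to 12.1%) against 3.81%. These chromosomes were picked after their values were seen.

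Broad peaks often had further peaks close by. Another peak of the same list lay within 1 kb of 58.5% of broad and 30.5% of narrower peaks in HCT116, 53.8% and 28.9% in COLO320DM, and 51.2% and 37.4% in COLO205. In HT29 the shares were 42.1% of broad and 41.2% of narrower peaks, with overlapping intervals. In HCT15 they were 68.2% of broad and 42.5% of narrower peaks.

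Nearly every broad peak met a peak of some other line. Peaks met when they overlapped by at least 1 nt. Over all peaks of a list, broad and narrower together, 63.5% met a peak of another list in HT29, 66.2% in COLO205, 61.5% in HCT116, 52.9% in COLO320DM and 94.1% in HCT15. The broad peaks did so in 95.4% of cases in HT29, 94.7% in COLO205, 94.5% in HCT116 (89.8 to 97.5%), 90.6% in COLO320DM and 100% in HCT15. For the narrower peaks it was 62.2% in HT29, 65.6% in COLO205, 60.8% in HCT116, 52.4% in COLO320DM and 94.0% in HCT15. Without COLO205 the broad share was 76.8% in HT29, and without HT29 it was 82.8% in COLO205. Every other broad share with 1 list left out was 86.3 to 100%. The mean difference was 28.1 points, with broad peaks higher in 5 of 5 lists, and 33.8 points without HCT15. It is given with no p, because overlap is computed from the same start and end that make a peak broad, and a wider interval meets more peaks by its width alone.

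Sharing was therefore also measured at the summit. Summits of another list lay within 100 nt of the summit in 56.4% of all peaks in HT29, 58.8% in COLO205, 56.6% in HCT116, 49.8% in COLO320DM and 84.2% in HCT15. Among the broad peaks the share was 70.5% in HT29, 71.8% in COLO205, 78.7% in HCT116, 79.5% in COLO320DM and 90.9% in HCT15. Among the narrower peaks it was 55.8% in HT29, 58.5% in COLO205, 56.2% in HCT116, 49.4% in COLO320DM and 84.0% in HCT15. The mean difference fell to 17.5 points, still with broad peaks higher in 5 of 5 lists (exact sign-flip permutation test, two-sided p = 0.063, adjusted 0.0833). A shared summit counts in both lists, so the 5 differences are not independent, which the test does not take into account.

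Requiring each peak to cover at least 50% of the other set HT29 apart. Under this rule 44.2% of all peaks were shared in HT29, 47.8% in COLO205, 46.8% in HCT116, 43.5% in COLO320DM and 57.3% in HCT15. Broad peaks reached 67.0% in COLO205 against 47.3% of narrower peaks, 66.5% in HCT116 against 46.4%, 73.5% in COLO320DM against 43.0%, and 81.8% in HCT15 against 56.6%. HT29 broad peaks reached only 41.0% (35.8 to 46.3%), against 44.4% of HT29 narrower peaks (43.3 to 45.4%), with overlapping intervals. The mean difference was 18.4 points, with broad peaks higher in 4 of 5 lists. Widths enter this rule too, so it is also given with no p.

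Within read classes the summit rule gave no common direction. Broad and narrower peaks were compared within classes of under 10, 10 to 19, 20 to 39 and 40 or more reads, in the 15 list and class combinations with at least 10 peaks of both kinds. By overlap, broad peaks had the higher share in 15 of 15. By summits within 100 nt they were higher in 8 and lower in 7, with a median difference of 0.317 points. By the 50% rule they were higher in 4 and lower in 11, with a median of −5.74 points. HT29 peaks under 10 reads kept the largest gap by overlap, 92.2% of broad against 44.2% of narrower peaks. By summit, the same class had 51.9% of broad and 36.4% of narrower peaks.

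What a broad peak met depended strongly on the line searched. HT29 broad peaks met a COLO205 peak in 91.4% of cases (88.0 to 94.1%) and a COLO320DM peak in only 11.2% (8.07 to 15%). The HT29 narrower peaks met COLO320DM more often than that, in 27.3%, and COLO205 in 50.3%. COLO205 broad peaks met HT29 in 89.5% and COLO320DM in 37.8%, against 47.7% and 30.1% of the COLO205 narrower peaks. COLO320DM broad peaks, in turn, met HCT116 in 84.6%, COLO205 in 81.2% and HT29 in 76.9% of cases, against 41.6%, 33.2% and 26.4% of its narrower peaks. All 22 broad peaks of HCT15 met an HT29 peak and 21 a COLO205 peak, against 84.8% and 77.3% of its narrower peaks. An HCT116 peak met 18 of the 22, against 40.7% of the HCT15 narrower peaks, and a COLO320DM peak met 1, which is 4.55% and close to the 5.42% of the narrower peaks.

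The partner was often split or narrow. A wider interval meets broad peaks and several peaks more often by its width alone, so the shares below are a description. In COLO205, HT29 broad peaks met another broad peak in 27.2% of cases, a run of several narrower peaks in 33.8% and 1 narrower peak in 30.4%. For HT29 narrower peaks these shares were 1.90%, 1.26% and 47.1%. Up to 4 COLO205 peaks lay under 1 HT29 broad peak. HCT116 broad peaks met a broad COLO320DM peak in 37.8%, several narrower ones in 25% and 1 narrower peak in 17.1%. For HCT116 narrower peaks these shares were 0.642%, 0.528% and 37.0%. COLO320DM broad peaks met a broad HCT116 peak in 53.0%, the highest such share between any 2 of the 4 long lists, against 1.61% of its narrower peaks. Of the 22 HCT15 broad peaks, 17 met a broad HT29 peak and 13 a broad COLO205 peak, against 23.3% and 10.8% of the HCT15 narrower peaks. Where HCT15 broad peaks met HT29, the HT29 peaks covered a median of 100% of their width, and COLO320DM broad peaks were covered to a median of 93.2% by HCT116. HT29 broad peaks met by HCT116 were covered to a median of only 32.2%.

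**Figure D3:**
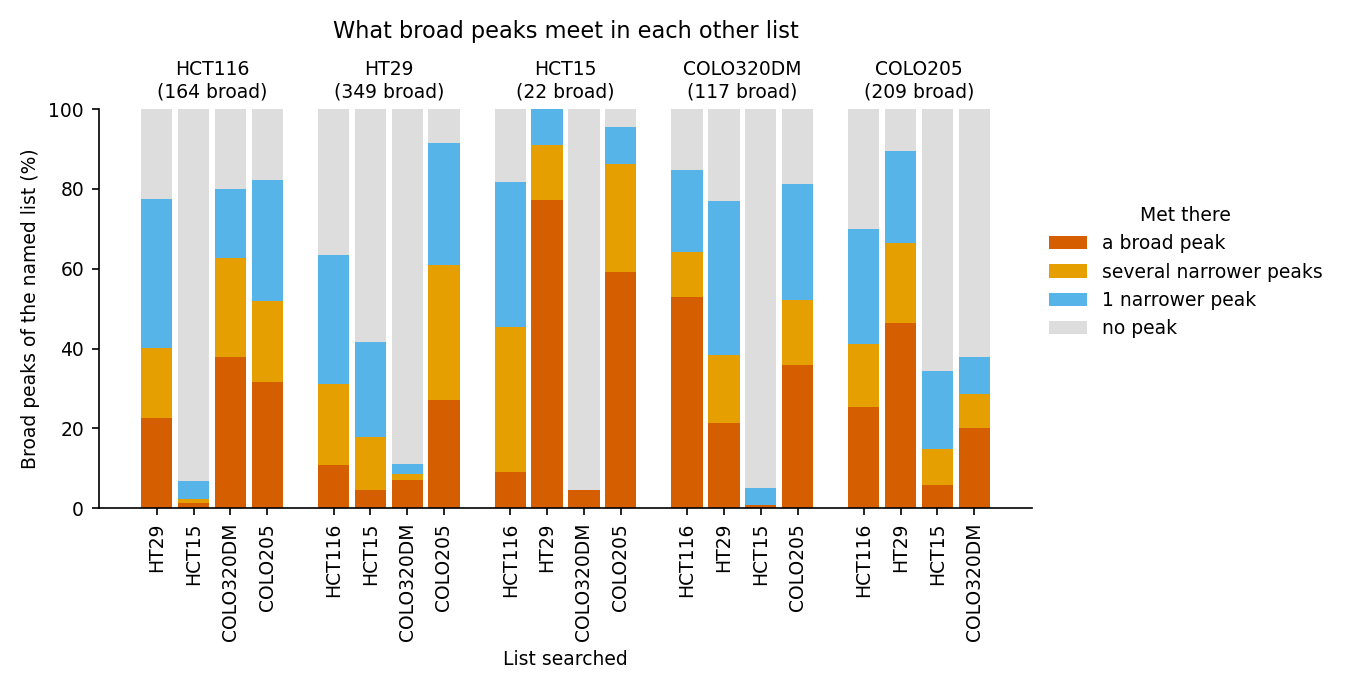
What the broad peaks of each list (groups of bars, with their number above) met in each other list (bars), as a share of the broad peaks (vertical axis, %). HT29 broad peaks met a COLO205 peak in 91.4% and a COLO320DM peak in 11.2% of cases, and COLO320DM broad peaks met a broad HCT116 peak in 53.0%.

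Merging overlapping broad peaks across the lists gave 614 loci, and most were broad in a single line. There were 453 loci broad in 1 list, 104 in 2 lists, 36 in 3, 20 in 4 and 1 in all 5, so 161 were broad in at least 2 lists. That count was 90 without COLO205, 92 without HT29 and 155 without HCT15. Most of the 453 were present elsewhere as narrower peaks. A narrower peak of another list met 406 of them, and 47 had no peak of any width in the other 4 lists. The 238 loci broad in HT29 alone had a narrower COLO205 peak in 210 cases, a narrower HCT116 peak in 134, an HCT15 peak in 96 and a COLO320DM peak in 7. Of all HT29 broad peaks, 91.4% met a COLO205, 63.3% an HCT116, 41.5% an HCT15 and 11.2% a COLO320DM peak of any width. For all HT29 narrower peaks these shares were 50.3%, 36.1%, 6.39% and 27.3%. The 80 loci broad in HCT116 alone had a narrower peak in COLO320DM and in COLO205 in 57 cases each, in HT29 in 50 and in HCT15 in 1. Of all HCT116 broad peaks, 79.9% met a COLO320DM, 82.3% a COLO205, 77.4% an HT29 and 6.71% an HCT15 peak of any width. For all HCT116 narrower peaks these shares were 38.1%, 40.3%, 35.4% and 3.97%.

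Shared broad loci fell mainly into a few combinations of lines. The most frequent was HT29 with COLO205, at 57 loci, of which 12 were mostly input-covered, that is, more than 50% of their broad peaks were. COLO320DM had no peak of any width at 53 of these 57. It had none under 88.8% of all HT29 broad and 62.2% of all COLO205 broad peaks, against 72.7% and 69.9% of their narrower peaks. The next combination was HCT116 with COLO320DM, at 21 loci, all 21 of them mostly input-covered, and HT29 had a narrower peak at 16. An HT29 peak of any width met 77.4% of all HCT116 and 76.9% of all COLO320DM broad peaks, against 35.4% and 26.4% of their narrower peaks. All 4 long lists shared 19 loci, HCT116, COLO320DM and COLO205 shared 17, and HCT116 and COLO205 shared 9, and all the loci of these 3 combinations were mostly input-covered. The share of mostly input-covered loci was 48.1% for loci broad in 1 list, 48.1% for 2 lists, 77.8% for 3 lists and 100% of the 20 loci broad in 4. The 1 locus broad in all 5 lists was not mostly input-covered.

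HCT15 entered few of the shared loci. At 11 loci HCT15 was broad together with at least 2 other lists. Of these, 10 lay within 5 Mb of a chromosome end, a zone that held 68.2% of all HCT15 broad and 38.8% of its narrower peaks. COLO320DM had no peak of any width at 10 of the 11. That absence is near the share of all HCT15 peaks without a COLO320DM peak, 95.5% of the broad and 94.6% of the narrower ones. An HCT116 peak of any width met 81.8% of all HCT15 broad and 40.7% of its narrower peaks. At 9 of the 11 the other broad lists were HT29 and COLO205, with a narrower HCT116 peak at all 9. These included chr21:44755854-44757518, chr5:552285-553866, chr16:1082527-1084591, chr9:137576753-137577868 and chr17:79498166-79499877. At chr11:1092539-1093631 HCT116 was broad as well. Of the 46 loci broad in 3 or more lists but not in HCT15, HCT15 had no peak of any width at 41. Its short list lacked a peak under 93.3% of the broad and 96.0% of the narrower HCT116 peaks, and under 94.9% and 99.5% of those of COLO320DM. It lacked one under 58.5% of the broad HT29 and 65.6% of the broad COLO205 peaks, against 93.6% of the narrower peaks of each. So 41 of 46 is below the HCT116 and COLO320DM shares and above the broad shares of HT29 and COLO205.

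How exactly the broad peaks coincided differed by input class. There were 343 pairs of overlapping peaks that were broad in both lists. In the 236 pairs that were input-covered in both, the starts and ends differed by a median of 26 nt between the 2 lists, and 66.3% of edges lay within 50 nt. Their summits lay a median of 26 nt apart, and the peaks shared a median of 90.5% of their joint length. In the 60 pairs that were input-poor in both, edges differed by a median of 139 nt, 25% lay within 50 nt, summits were a median of 143.5 nt apart, and 59.2% of the joint length was shared. Both edges fell within 50 nt in 111 of the 236 input-covered and in 6 of the 60 input-poor pairs. The 47 mixed pairs lay between, with a median edge difference of 80 nt.

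Reads moved with this difference. The lower of the 2 read counts had a median of 35 in the input-covered and 8 in the input-poor pairs, and the part of read depth was not tested. Among pairs whose lower count was 10 to 19 reads, 20 were input-covered with a median edge difference of 48.5 nt, and 20 were input-poor with 115 nt. The 20 mixed pairs of that class had 149.5 nt, above both. The summits were a median of 214.5 nt apart in the input-covered and 165 nt in the input-poor pairs of that class, so the order at the summit did not hold there. Leaving out HCT15, which has scaled reads, the median edge difference was 25 nt in 233 input-covered and 142 nt in 45 input-poor pairs.

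**Figure D4:**
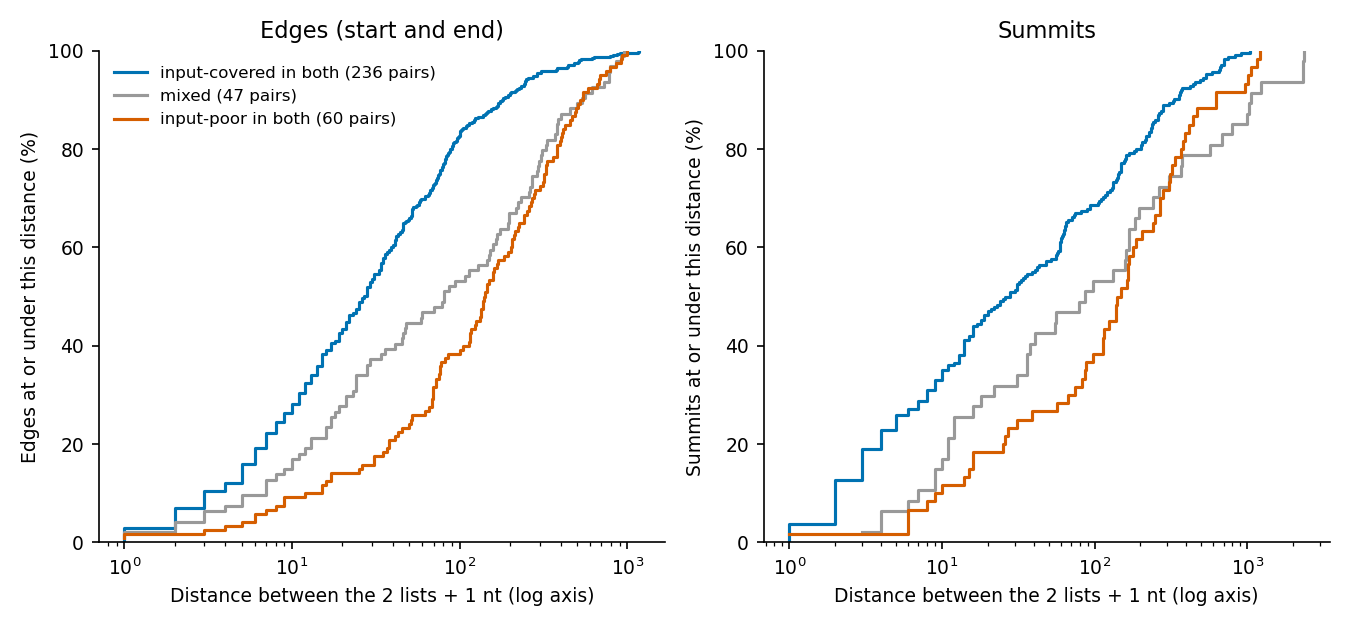
Cumulative share (vertical axes, %) of the edges (left panel) and summits (right panel) of peak pairs broad in 2 lists, by their distance between the lists plus 1 nt (horizontal axes, log axis), 1 curve per input class. The median edge difference was 26 nt in the 236 pairs input-covered in both lists and 139 nt in the 60 pairs input-poor in both.

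The 10 loci broad in the most lists were taken as examples, ties being broken by the narrowest of their widest peaks. The only locus broad in all 5 lists, chr5:9985-11814, lies at the very start of chromosome 5, its last base being 11814. No sequence was used here, so whether reads can be placed uniquely so close to the chromosome end was not tested. Its widest peak had 1830 nt in HT29, 1714 nt in HCT116, 1379 nt in COLO320DM, 718 nt in HCT15 and 526 nt in COLO205. Over their summits those peaks had 33 IP reads in HT29, 18 in HCT116, 7 in COLO320DM, 18 unscaled in HCT15 and 8 in COLO205. The local background there was 0.074 to 1 input fragments. HCT116 and HT29 thus listed 1 unbroken peak, whereas the other lists broke the same stretch into 2 to 4 peaks. The deposited fold was 32.1 in HT29, 16.7 in HCT116, 4.86 in COLO320DM, 6.32 in HCT15 and 8.31 in COLO205.

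The locus chr15:65243376-65247417 held the widest autosomal peak of each long list. The peak had 3958 nt and 32 summit reads in HCT116, and 4027 nt and 64 summit reads in HT29. It had 3970 nt and 30 summit reads in COLO320DM, and 4019 nt and 56 in COLO205. Its 4 starts fell within 51 nt and its 4 ends within 45 nt of each other. The summit lay at 65246143 in HCT116, 65246114 in HT29 and 65246096 in COLO320DM, and at 65243786 in COLO205, a spread of 2357 nt. Outer bounds were thus nearly the same in the 4 lines, while the highest point was in another place in COLO205. The fold was 37.1 in COLO205, 35.7 in HT29, 15.9 in COLO320DM and 14.1 in HCT116, over 0.975 to 2.17 input fragments. HCT15 had no peak there.

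The other 8 were also broad in the 4 long lists, and HCT15 had no peak within their bounds. At chr1:224199719-224201187 an HCT15 peak met a narrower COLO320DM peak, chr1:224201034-224201350, which reaches past the end of the locus. At chr2:170492961-170493860 the starts fell within 9 nt, the ends within 57 nt and the summits within 15 nt. Its peaks had 900 nt in HT29, 864 nt in COLO320DM, 850 nt in COLO205 and 841 nt in HCT116, with 43 to 54 summit reads. At chr20:17639289-17640576 the peaks had the most summit reads of the 10 loci, over 58.0 to 62.0 input fragments. These were 138 in both COLO205 and HCT116, 132 in COLO320DM and 129 in HT29. The folds were accordingly low, 4.14 in COLO205, 3.55 in HCT116, 3.45 in COLO320DM and 3.14 in HT29, and the summits fell within 12 nt. HT29 broke this stretch into peaks of 763 and 396 nt where the other lines had 1 peak of 1257 to 1266 nt.

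On chromosome 11, 2 of the loci were direct neighbours, chr11:57075995-57076902 and chr11:57077159-57077894. In the first, widths ran from 668 nt in HT29 to 908 nt in HCT116, and in the second from 657 nt in COLO205 to 726 nt in HCT116 and HT29. The ends of the second fell within 10 nt in the 4 lists, and its summits were spread over 487 nt. At chr20:61443773-61444973 the peaks had 1201 nt in HCT116, 1167 nt in COLO320DM, 1069 nt in COLO205 and 930 nt in HT29, with ends within 27 nt and summits within 62 nt. At chr16:89365641-89366658 and chr17:79219267-79220471 the widths ran from 822 to 1016 nt and from 796 to 1205 nt. The locus chr1:224199719-224201187 was the least uniform of these 8 in its starts, with a broad peak of 1277 nt in COLO205, 1088 nt in HT29, 786 nt in COLO320DM and 690 nt in HCT116, these starts being spread over 779 nt, and only 13 to 25 reads.

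**Figure D5:**
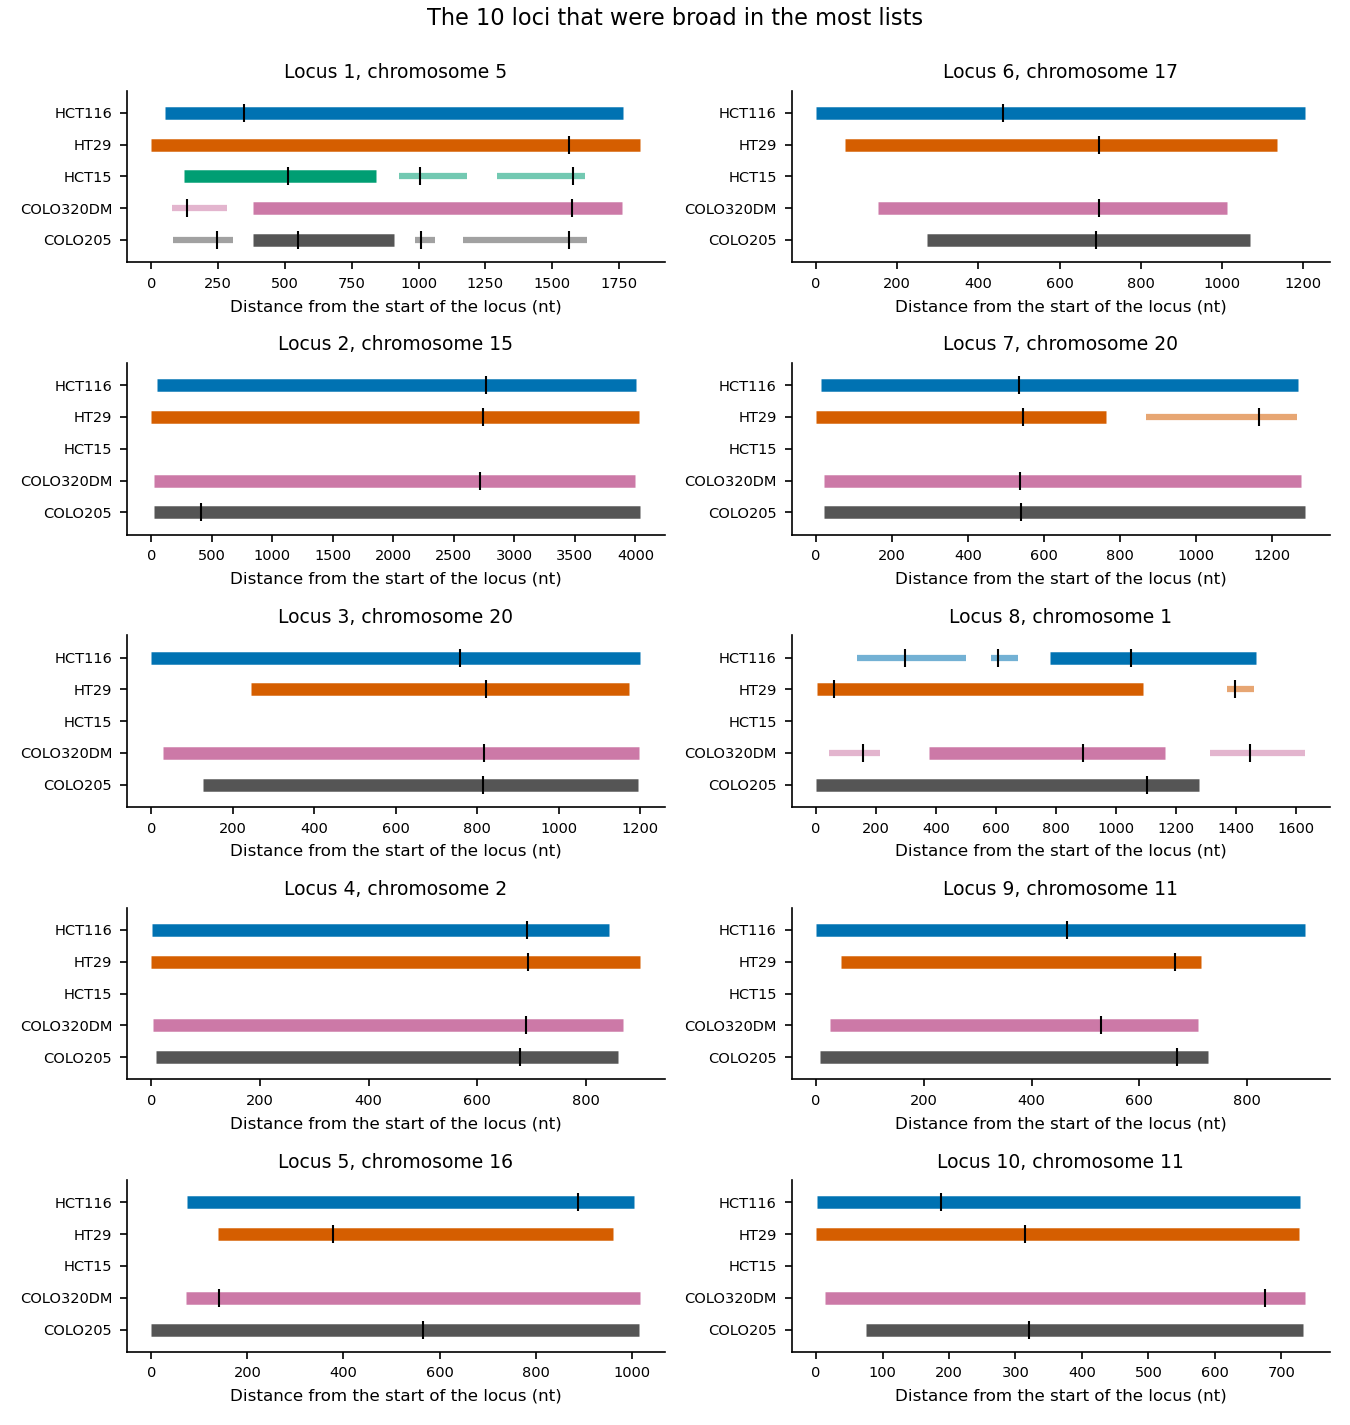
Peaks of the 5 lists (rows) at the 10 loci broad in the most lists, by distance from the start of the locus (horizontal axes, nt); thick bars are peaks of 500 nt or more, thin pale bars narrower ones, and black ticks are summits. Locus 1, at the start of chromosome 5, is the only one with an HCT15 peak within its bounds. In locus 2, on chromosome 15, the COLO205 summit lies apart from the other 3.

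The strongest broad peaks of each list, ranked by deposited −log10 p, were mostly shared, like 90.6 to 100% of all broad peaks by overlap. In HCT116 and COLO320DM the first was the same locus: chr20:61510537-61511209 in HCT116, with −log10 p 66.5 and 92 reads, and chr20:61510550-61511204 in COLO320DM, with 62.3 and 84 reads. It was broad in HT29 and COLO205 too and met an HCT15 peak. The next of HCT116 were chr3:65342001-65342776, with 71 reads over 7.0 input fragments, and chr17:28511815-28512727, with 44 reads over 1.65. In COLO320DM they were chr8:9628639-9629417, with 36 reads, which HT29 lacked, and chr1:154988714-154989303, with 53 reads.

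In HT29 the first 3 by −log10 p were the chromosome 15 and chromosome 5 loci described above, at 96.8 and 80.3, and chr17:79398487-79399867, at 80.5. The last was input-poor, with 38 reads over 0.195 fragments and a fold of 34.4, and COLO320DM had no peak there. The second widest HT29 peak, chr1:142537375-142539762, had 2388 nt and 36 reads, was broad in COLO205 as well and had no COLO320DM peak.

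In COLO205 the chromosome 15 locus came first, at 92.2. After it came chr6:64423123-64423626 and chr1:171501574-171502079, of 504 and 506 nt, each with 72 reads over 4.0 input fragments, a fold of 22.8 and a −log10 p of 81.5. Equal whole numbers of reads and fragments give equal values under the caller's formula. Both were met only by narrower peaks, in HCT116, HT29 and COLO320DM. The 2 next widest COLO205 peaks, chr13:31416615-31418177 at 1563 nt and chr21:44755870-44757354 at 1485 nt, had 14 and 18 summit reads and were also broad in HT29.

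In HCT15 the strongest broad peak, chr11:1092561-1093177, had 56 unscaled reads, a fold of 13.9 and a −log10 p of 25.4. It was followed by chr8:143336775-143337395, with 35 reads and 22.3, and chr5:552846-553822, with 31 reads and 20.1. All 3 were input-poor, met broad peaks of HT29 and COLO205, and had no COLO320DM peak. The widest HCT15 peak, chr21:44756486-44757466, was input-covered, with 39 reads over 1 fragment.

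Each of the 3 widest peaks of every list was broad in at least 1 other list. They were picked by width, and a wider interval meets more broad peaks by its width alone. Of all 614 loci, 161 were broad in at least 2 lists. In HCT116 the second widest, chr17:77807424-77809214, had 1791 nt and 46 reads over 14.0 input fragments, and was broad in COLO320DM and COLO205. In COLO320DM the second widest, chr8:144996770-144998561, had 1792 nt and 51 reads over 23.0 fragments at a fold of only 3.28, and was broad in HCT116 and COLO205. HT29 had a narrower peak at both.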

How the data were processed

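MeRIP-seq peak lists of 5 m6A IP libraries were analysed, 1 per line; the inputs entered only through the local background of the peaks. Tools named in the submitters' processing notes are MACS2, BWA, cutadapt and FastQC, and the build is hg19; versions and settings are not given in the sources used here. Per the labels' protocols, total RNA was broken to pieces near 100 nt, of which 10% served as input. The deposited columns are positions, a score, a fold enrichment (a ratio), a −log10 p and a −log10 q, and all are the authors' own values.

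IP reads and background were solved from the deposited fold and −log10 p by the caller's formula, fold = (reads + 1) / (background + 1), with a Poisson p-value. All peaks had a whole read count within 0.001 of the deposited −log10 p, and 1 broad peak, in COLO205, had more than 1 solution. On simulated peaks with no scaling, 100% of 982 were recovered, and with scaling 100% of 1243. The control was taken to be the input of the line, which no source used here states. The depth estimate assumes a genome of 2.7 Gb. It takes the lowest background of a list as the genome mean and its shortest peak, 73 to 75 nt, as the fragment length.

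Location and sharing were tested by exact sign-flip permutation over the 5 lists, 4 tests adjusted by Benjamini-Hochberg. The 2 by overlap use the width itself and are given without a p. The same loci recur in several lists, so the lists are not fully independent units in these tests. Measures from the peak call itself were described without a test. Widths of 400 and 750 nt, a fold of 4 or more, a −log10 q of 5 or more, chromosomes X and Y, other rules of overlap, an end zone of 1 Mb and each list left out were tried. Named loci are the 10 broad in the most lists, and the 3 widest and the 3 of highest −log10 p of each list. The members, the comparisons and these rules were chosen with earlier results of these data known. The planned annotation by genes was not run, since no hg19 annotation was used here. The software was bedtools 2.31.1, scipy 1.17.1, pandas 2.3.3, numpy 2.4.6, matplotlib 3.10.9 and Python 3.11.15.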

Additional observations from a re-analysis of the deposited data

Results flagged for a closer look

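The input-covered share of broad peaks minus that of narrower peaks had opposite signs between the lines. The difference was 35.98 points in HCT116, 34.4 points in COLO320DM and 9.95 points in COLO205. In HT29 it was −8.64 points and in HCT15 −4.92 points. The difference between the lines was not tested, since each line has 1 library, and the HCT15 value rests on 22 broad peaks.

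Broad peaks outside chromosomes 1 to 22, which no comparison above uses, numbered 38 in COLO205, 13 in HCT116, 8 in HT29 and 7 in COLO320DM. HCT15 had none. The lists hold 714, 537, 402 and 528 peaks there in the same order, and HCT15 only 65, so its count of 0 is not set against the others. Of the broad peaks there, 8 in HCT116 and 6 in COLO205 lay on the mitochondrial genome. On the X and Y chromosomes together there were 30 in COLO205, 8 in HT29, 7 in COLO320DM and 4 in HCT116. The widest was in COLO205, with 6987 nt.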

How the results depend on the processing

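The count of broad peaks follows the width threshold. At 400 nt, broad peaks were 3.75% of the HCT116, 6.69% of the HT29, 4.23% of the HCT15, 3.05% of the COLO320DM and 4.18% of the COLO205 list, 298 loci were broad in at least 2 lists, and 88.0% of the HCT116 broad peaks were input-covered. At 750 nt the shares were 0.428%, 1.15%, 0.587%, 0.253% and 0.474% in the same order, 32 loci were broad in at least 2 lists, and 100% of the COLO320DM broad peaks were input-covered. With a −log10 q of 5 or more they were 3.39%, 6.53%, 5.29%, 2.54% and 3.61%. At a fold of at least 4 the share was 2.42% in HCT116, 4.56% in HT29 and 1.76% in COLO320DM. These filters remove narrower peaks from the denominator. Leaving out 1 list, 90 to 155 loci were broad in at least 2 lists, with 90 without COLO205 and 92 without HT29. The mean location difference was 15.8 to 20.2 points and the mean overlap difference 28.7 to 33.8 points with 1 list left out. In 62 other alternatives, values that answer a comparison moved by less than counting error or 1.5 times; of the further values of single lists 25 moved and 85 did not, and no mean difference over the lists changed its direction. The overlap difference of HT29 did turn, within counting error: by reciprocal overlap of 50% it was 41.0% of broad against 44.4% of narrower peaks, with overlapping intervals. A pseudocount of 0 gave whole reads for 2 of the 861 broad peaks, so it gave no values. With 5 lists no test could reach 0.05.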
